A study of Mus musculus with 37 samples.

Results

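Nuclear receptors are transcription factors that are switched by small lipophilic molecules, among them fatty acids, bile acids, oxysterols, steroids, thyroid hormone and retinoids. In the liver, PPARα (Ppara) drives genes of fatty acid oxidation, FXR (Nr1h4) and SHP (Nr0b2) restrain bile acid synthesis, and CAR (Nr1i3) and PXR (Nr1i2) respond to foreign chemicals. HNF4α (Hnf4a) maintains the hepatocyte program, and many of these receptors bind DNA as a pair with an RXR. The family was examined in livers of mice given HFPO-DA, a short-chain perfluorinated ether acid, and 38 of its genes were taken by symbol alone. All 38 were found in the table, with 77 of its 30146 probes and 38 of its 21450 gene symbols. Counts were high enough to test 68 probes of 34 receptors, among 18570 probes of 13004 genes tested in all.

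The samples were liver sections of 37 wild-type adults of the outbred CD1 strain, fixed in formalin and embedded in paraffin, and assayed by TempO-Seq, in which pairs of probes are ligated on their target RNA and the products are sequenced. Each animal was gavaged once daily with vehicle alone or with HFPO-DA. The vehicle group (0 mg/kg) and the 0.1 mg/kg group each had 5 males and 5 females, the 0.5 mg/kg group had 5 males and 4 females, and the 5 mg/kg group had 4 of each sex. Males received 84 to 85 doses, starting 70 days before a mating period of 14 days. Females received 53 to 65 doses, from 14 days before mating to lactation day 20 or 21, so that all females were dams at the end of lactation. Sex therefore cannot be told apart from lactation, age at dosing and number of doses in any comparison between male and female mice. A bulk section holds all liver cell types, and a lower level in fewer cells cannot be told apart from less RNA per cell.

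Total counts ran from 2101495 to 10548222 in males and from 7952605 to 13878254 in females. Of the 4 libraries under 5000000 counts, all were male, and 2 of them (mice 1 and 3, with 4147445 and 2101495 counts) belonged to the 4 males at 5 mg/kg. Males also varied more within a group: over 7148 probes with a mean of at least 10 CPM (counts scaled by the TMM-normalized library size), the median SD on the log2 scale was 0.486 in males and 0.295 in females. Hepatocyte markers marked the tissue, with Alb at a mean of 9310 CPM and counts in all 37 mice, and cholangiocyte markers ran from Spp1, with 10358 counts in all 37 mice, and Krt19, with 3016 counts in 28, down to Epcam, with 28 counts in 1 mouse. At 5 mg/kg the summed level of 7 hepatocyte markers was 22000 to 28200 CPM in males, all below the 39600 to 54800 CPM of their controls. In females it was 32000 to 36500 CPM against 32000 to 44600 CPM. Of 7 such markers tested, 5 fell in males and 2 in females, and the part of this shift in the results for the receptors was not tested.

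The promoters of 3 receptors on which the results turn are shown first: Rxra, which fell in both sexes, Nr1h4, whose 2 probes both fell in males, and Nr1i3, which differed between the control groups. Each window is RefSeq sequence of build GRCm38.p6, reads 5′ to 3′ on the gene's strand, and spans 250 bases before and 50 bases from a transcription start. Capitals mark AGGTCA, the hexamer that many nuclear receptors recognise, or its complement TGACCT, and the E-box CACGTG, which clock factors recognise.
Rxra, chr2:27676951-27677250, + strand: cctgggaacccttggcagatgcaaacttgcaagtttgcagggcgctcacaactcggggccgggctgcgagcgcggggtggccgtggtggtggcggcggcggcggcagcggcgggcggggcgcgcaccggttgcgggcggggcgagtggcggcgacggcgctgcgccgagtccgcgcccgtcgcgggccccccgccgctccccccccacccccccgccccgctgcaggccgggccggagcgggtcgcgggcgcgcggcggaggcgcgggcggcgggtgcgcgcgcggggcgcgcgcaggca
Rxra, chr2:27709042-27709341, + strand: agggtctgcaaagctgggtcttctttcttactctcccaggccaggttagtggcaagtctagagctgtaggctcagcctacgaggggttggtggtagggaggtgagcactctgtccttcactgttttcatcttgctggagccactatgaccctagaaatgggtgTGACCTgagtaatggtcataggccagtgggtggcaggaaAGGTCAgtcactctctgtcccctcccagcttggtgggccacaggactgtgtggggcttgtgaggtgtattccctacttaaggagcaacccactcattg
Nr1h4, chr10:89506609-89506908, - strand: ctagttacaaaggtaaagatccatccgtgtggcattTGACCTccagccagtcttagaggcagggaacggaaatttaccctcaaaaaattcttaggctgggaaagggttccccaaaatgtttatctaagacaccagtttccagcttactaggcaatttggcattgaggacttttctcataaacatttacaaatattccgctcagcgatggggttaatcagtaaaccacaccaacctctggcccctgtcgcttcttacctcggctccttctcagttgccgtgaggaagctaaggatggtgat
Nr1i3, chr1:171213720-171214019, + strand: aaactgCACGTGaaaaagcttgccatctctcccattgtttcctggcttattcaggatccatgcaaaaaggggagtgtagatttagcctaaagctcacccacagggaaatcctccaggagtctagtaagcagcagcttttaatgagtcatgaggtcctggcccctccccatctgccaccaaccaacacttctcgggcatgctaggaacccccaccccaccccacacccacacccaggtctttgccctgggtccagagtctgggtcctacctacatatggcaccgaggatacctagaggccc

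The first Rxra window is 83.0% G and C and holds neither motif, while the second, farther into the gene, is 54.3% G and C and holds the hexamer 87 and 48 bases before its start. The Nr1h4 window, also inside the gene as GENCODE draws it, holds the hexamer 214 bases before its start, and the Nr1i3 window holds an E-box 244 bases before its start. Over the 54 windows of 35 receptors, 11 windows (20.4%) held the hexamer on either strand, against 16.3% of 32851 windows of all genes. The E-box was in 5 receptor windows (9.26%), against 7.15% of all. These matches are letters in a window and were not tested as binding sites. No window was found for Hnf4g, Thra or Nr3c1.

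At 5 mg/kg in males, the receptors that changed all fell. They were Rxra, Nr1h4, Nr1i3, Ppara, Esr1 (estrogen receptor α), Nr2c2 (the orphan receptor TR4), Esrra (estrogen-related receptor α) and Nr6a1 (the germ cell nuclear factor). That is 10 of 68 probes (14.7%) in 8 of 34 genes, with 0 probes higher. A gene counted where any of its probes was called, so 8 of 34 has no like share among all probes. With the probes of each gene summed instead, 1877 of 13154 genes were called in all. Over all probes tested, 12.7% were called and 8.49% were called lower, by edgeR's quasi-likelihood test with an adjusted p under 0.10. The median log2 fold change of the receptor probes was -0.54, against -0.12 over all probes, and 77.9% of them were negative, against 55.6% of all. The share called was close to that of all probes and the share called lower was above it. With males fitted apart, however, 2 of 60 receptor probes were lower (3.33%), against 4.69% of all. Without the libraries under 5000000 counts 5 of 71 were lower (7.04%), against 1187 of 20794 of all.

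In females at 5 mg/kg, only Rxra passed, with both of its probes lower. These were 2 of 68 probes (2.94%), against 4.52% called and 2.26% called lower over all probes. The median log2 fold change of the receptor probes was -0.21, against -0.01 over all. No receptor probe passed the test of the difference between the sexes in the response, where 0.63% of all probes did, and the smallest adjusted p was 0.331, for Ppara_30567. At an unadjusted p under 0.05, 11 receptor probes differed between the sexes (16.2%, against 10.7% of all), and DESeq2 called 0, against 1.53% of all.

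**Figure D1:**
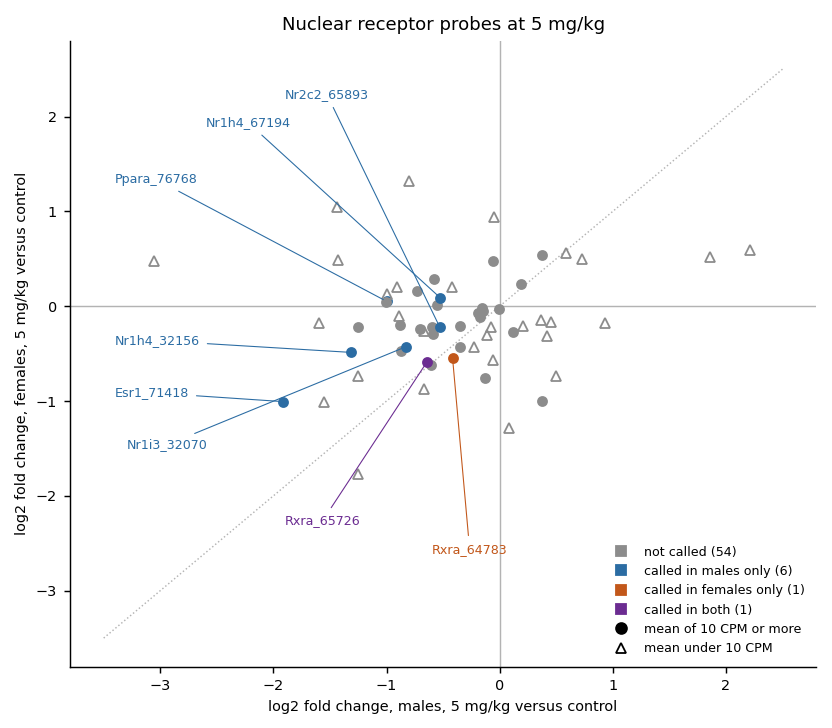
Log2 fold change of nuclear receptor probes at 5 mg/kg against the control of the same sex, males on the x axis and females on the y axis, for 62 probes; colours mark probes called in males only (6), in females only (1), in both (1) or in neither (54), and the dotted line marks equal change. Most points lie left of 0 on the male axis. The 6 probes for which a group had 3 counts or fewer are not drawn.

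The calls depended on how the mice were modelled. All 37 mice shared one estimate of the spread. With each sex fitted apart, 2 of 60 receptor probes (3.33%) passed in males at 5 mg/kg (Rxra and Nr1h4), against 6.96% of all probes. In females 5 of 65 receptor probes were lower (Rxra, Esr1, Nr5a2 and Thrb) and 1 was higher (Nr2c1). Of all probes 12.3% were called, and 1152 of 17038 were called lower. Without the 4 libraries under 5000000 counts, only mice 2 and 4 remained of the males at 5 mg/kg. In males 5 of 71 receptor probes (7.04%) were then lower (Rxra, Nr1h4, Esr1 and Esrrg). Of all probes 8.86% were called, and 1187 of 20794 were called lower. Mice 2 and 4 had 0 counts on each Esrrg probe. In females 3 of 71 receptor probes (4.23%) were lower (Rxra and Esr1). Of all probes 5.80% were called, and 669 of 20794 were called lower. Rxra was called in both sexes, and Nr1h4 in males, under each of these settings.

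Of the RXRs, the shared partners of many other receptors, Rxra varied least: its 2 probes had the smallest spread within groups of all receptor probes (SD 0.191 and 0.222 on the log2 scale). The gene lies at chr2:27676440-27762957 (GRCm38, + strand). On the probe Rxra_65726, the male controls had 345, 346, 269, 289 and 280.5 CPM, and the males at 5 mg/kg had 188, 211, 159 and 226 CPM. The female controls had 408, 307, 303, 359 and 326 CPM, and the females at 5 mg/kg had 183, 245, 231 and 251 CPM. In both sexes all mice at 5 mg/kg lay below all controls. In males the probe fell by 0.64 on the log2 scale (SE 0.15, adjusted p = 0.00443), and in females it fell by 0.58 (SE 0.15, adjusted p = 0.0174).

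On the second probe, Rxra_64783, the females at 5 mg/kg had 927, 1029, 859 and 1075 CPM, all below the 1239 to 1586 CPM of their controls. It fell by 0.55 in females (SE 0.16, adjusted p = 0.0437). The males at 5 mg/kg had 902, 1215, 764 and 1224 CPM, and 1224 CPM overlapped the controls at 1216 to 1582 CPM. Its log2 fold change in males was -0.42 (SE 0.16, adjusted p = 0.10), which was just short of a call. The difference between the sexes was -0.06 for Rxra_65726 (95% interval -0.49 to 0.37) and 0.13 for Rxra_64783 (95% interval -0.32 to 0.58), on the log2 scale. Without mouse 1 at 5 mg/kg neither probe was called in females (adjusted p = 0.134 for Rxra_65726 and 0.142 for Rxra_64783), although the log2 fold changes were -0.49 and -0.53. Over 19 alternatives those of Rxra_65726 ran from -0.64 to -0.49 and those of Rxra_64783 from -0.60 to -0.49. The call of Rxra_64783 was also lost without control 4 (0.106) or mouse 3 at 5 mg/kg (0.193).

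At the lower doses Rxra was not called. At 0.5 mg/kg the females had 1192, 1081, 979 and 1225 CPM on Rxra_64783, again all below their controls, with a log2 fold change of -0.34 that did not pass (adjusted p = 1). For Rxra_65726, males at 0.5 and 0.1 mg/kg differed from controls by -0.37 and -0.17 (log2) and females by -0.29 and -0.07, none of which passed. The other RXRs had few counts, with a mean of 3.0 CPM on the better counted of the 2 Rxrb probes and 8.27 CPM on the Rxrg probe. At 5 mg/kg Rxrg differed from controls by -1.43 (log2) in males, and by 0.49 in females (adjusted p = 0.206 and 0.985).

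**Figure D2:**
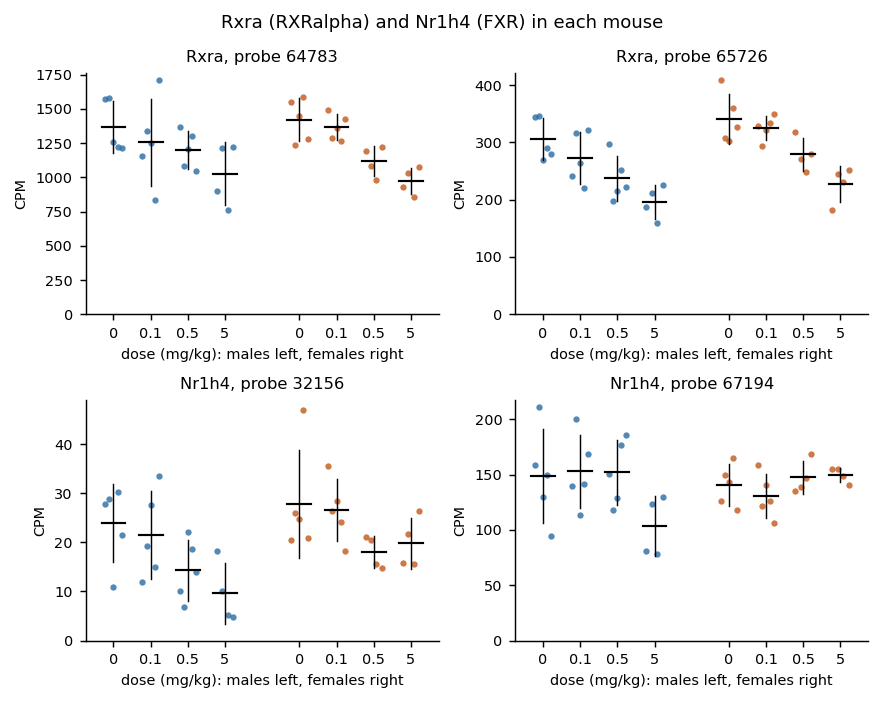
CPM of both probes of Rxra and of Nr1h4 in each mouse (points), by dose in mg/kg, with males left and females right; bars mark the group mean and vertical lines 1 SD. For Rxra_65726 the mice at 5 mg/kg, at 159 to 226 CPM in males and 183 to 251 CPM in females, lie below all controls of their sex, while Nr1h4_67194 is called lower at 5 mg/kg in males and overlaps its controls in females.

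FXR (Nr1h4, chr10:89454234-89533585, - strand), the bile acid sensor, fell in males on both probes. On Nr1h4_32156 the male controls had 27.9, 28.9, 11, 30.3 and 21.5 CPM, and the males at 5 mg/kg had 18.2, 10.2, 5.25 and 4.79 CPM. One control lay among the treated mice, and the probe fell by 1.31 on the log2 scale (SE 0.37, adjusted p = 0.0203). On Nr1h4_67194 the controls had 159, 211, 130.2, 149.5 and 94.9 CPM and the males at 5 mg/kg 81.1, 123, 78.4 and 129.8 CPM. These groups overlapped, and the probe fell by 0.53 (SE 0.19, adjusted p = 0.0849).

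In females the same probes had log2 fold changes of -0.49 (SE 0.36, adjusted p = 0.764) and 0.09 at 5 mg/kg. On Nr1h4_67194 the females at 5 mg/kg had 141 to 155 CPM and their controls 118 to 165 CPM, so the females overlapped fully. The call of Nr1h4_32156 in males held in each of 19 alternative fits and mouse sets. That of Nr1h4_67194 was lost in 11 of the 19, with the largest adjusted p at 0.492: without control 1 (adjusted p = 0.109), control 2 (0.197), mouse 1 (0.181) or mouse 3 (0.239) at 5 mg/kg, without the shallow libraries (0.492), with males fitted apart (0.203) and under 5 other settings. The difference between the sexes was -0.62 on Nr1h4_67194 (95% interval -1.17 to -0.07, adjusted p = 0.403).

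SHP (Nr0b2), the repressor that FXR induces, was scarce and variable. The male controls had 3.84, 7.52, 0, 7.31 and 16.6 CPM and the males at 5 mg/kg 0, 8.05, 0 and 1.55 CPM, with a log2 fold change of -1.44 (adjusted p = 0.363). The female controls had 3.98, 9.11, 3.75, 3.25 and 3.08 CPM and the females at 5 mg/kg 11.1, 11.1, 4.04 and 12 CPM, with a log2 fold change of 1.04 (adjusted p = 0.845). Both comparisons overlapped. LRH-1 (Nr5a2), a driver of bile acid synthesis genes, had log2 fold changes of -1.25 on Nr5a2_80065 and -0.61 on Nr5a2_74400 in males (adjusted p = 0.103 and 0.205). On Nr5a2_74400 the females at 5 mg/kg had 37.2, 38.3, 42.5 and 33.2 CPM, all below the 48.8 to 66.8 CPM of their controls. Its log2 fold change was -0.62 with all mice in the fit (adjusted p = 0.362) and -0.62 with females fitted apart, where it passed (adjusted p = 0.0163).

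The oxysterol receptors LXRα (Nr1h3) and LXRβ (Nr1h2), which raise genes of cholesterol efflux and lipid synthesis, passed on none of their 6 probes. The log2 fold changes in males ran from -1.56 to 0.45 and in females from -1.01 to 0.16. On Nr1h2_30556, their most counted probe, the males at 5 mg/kg had 26.2, 34.9, 8.63 and 28.6 CPM and the controls 33.3 to 44.2 CPM. One treated mouse lay within the controls, and the log2 fold change was -0.59. The lists of other genes here and below count a gene where any of its probes was called. As a scale, with the probes of each gene summed, 1179 of 13154 genes were lower and 698 higher in males at 5 mg/kg. In females 374 were lower and 396 higher. Of 8 LXR target genes tested, 2 rose in each sex, a count that does not measure LXR activity. Scd1, the stearoyl-CoA desaturase, rose by 1.78 and 2.25 on the log2 scale in males and females (adjusted p = 0.00112 and 7.68e-05). Lpcat3, a phospholipid acyltransferase, rose by 1.54 and 0.92 (adjusted p = 7.82e-06 and 0.0111).

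Of 6 FXR target genes tested, 1 rose and 2 fell in males and 1 fell in females. Whether FXR raises or lowers each gene was not part of this count, so it does not measure FXR activity. The bile acid importer Slc10a1 fell by 1.39 and 0.79 on Slc10a1_31687 in males and females (adjusted p = 4.72e-06 and 0.012). The exporter Abcb11 fell by 2.02 on 1 of its 2 probes in males (adjusted p = 0.0116), while the phospholipid exporter Abcb4 rose by 2.47 in males (adjusted p = 0.0477). The synthesis enzyme Cyp7a1, the rate-limiting step, differed by -1.28 (log2) in males, with 0.13 in females, and neither passed (adjusted p = 0.208 and 1).

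PPARα itself (Ppara, chr15:85734983-85802819, + strand) fell in males on 1 of its 3 probes, while most of its tested targets rose in both sexes. On Ppara_76768 the male controls had 58.0, 55.1, 33.7, 42.9 and 35.9 CPM, and the males at 5 mg/kg had 16.7, 29.7, 13.5 and 29.2 CPM, all lower. The log2 fold change was -1.0 (SE 0.32, adjusted p = 0.0409). The call was lost without mouse 1 (adjusted p = 0.102) or mouse 3 (0.141) at 5 mg/kg, which are the shallow libraries of that group. Without all 4 shallow libraries the log2 fold change was -0.66 (adjusted p = 0.212). The call was also lost with males fitted apart (adjusted p = 0.126).

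On Ppara_30567 the male controls had 47.2 to 76.4 CPM and the males at 5 mg/kg 40.8, 52.7, 42.8 and 31.1 CPM, with overlap. In females Ppara_76768 had 70.4, 50.5, 62.3 and 69.3 CPM at 5 mg/kg against 35.2 to 91.4 CPM in the controls. The female log2 fold changes were 0.05 on Ppara_76768 and 0.29 on Ppara_30567, so Ppara was called in no female comparison. The male response lay below the female one by 1.05 on Ppara_76768 (95% interval of the difference -1.93 to -0.17, unadjusted p = 0.0206, adjusted p = 0.386 over all probes) and by 0.87 on Ppara_30567 (unadjusted p = 0.0109, adjusted p = 0.331). Neither difference passed.

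Of 12 PPARα target genes tested, 9 rose in dosed males at 5 mg/kg, 8 rose in females, and 0 fell in either sex. The median log2 fold change, on the most counted probe of each gene, was 3.61 in males and 3.29 in females. Ehhadh, the peroxisomal bifunctional enzyme, rose by 5.51 and 5.03 on the log2 scale (adjusted p = 2.45e-17 and 3.29e-16). The ω-hydroxylase Cyp4a10 rose by 6.47 and 4.38 on Cyp4a10_31160. Acot1, a cytosolic thioesterase, rose by 4.78 and 4.80 on Acot1_66807, and Plin2, a lipid droplet coat protein, by 2.45 and 1.75 on Plin2_78909. These targets rose both in males, where 1 Ppara probe fell, and in females, where no Ppara probe was called.

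The other PPARs had few counts and were not called. On Ppard_75545, the most counted probe of PPARδ, the males at 5 mg/kg had 11.1, 11.8, 13.5 and 16.4 CPM, within the 5.45 to 16.6 CPM of their controls. The females at 5 mg/kg had 5.6, 7.66, 9.39 and 14.8 CPM, and their controls 7.65, 10.5, 54.5, 11.3 and 9.99 CPM. Control 3 stood far above the other female controls, and the log2 fold change of -1.0 in females did not pass (adjusted p = 0.268). PPARγ (Pparg), the adipocyte isoform, had at most 5.56 CPM in any control or 5 mg/kg mouse on Pparg_31145, and the adipocyte hormone Adipoq had 54 counts over all 37 mice. Of the adipocyte markers only Fabp4, a fatty acid chaperone, could be tested, and it rose by 3.62 in males and 3.4 in females on Fabp4_29289 (adjusted p = 2.32e-06 and 8.91e-06).

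CAR (Nr1i3, chr1:171213970-171220701, + strand) had the smallest adjusted p of all receptors between the male and female controls. On Nr1i3_30612 the male controls had 76.6, 68.0, 44.0, 31.1 and 60.7 CPM and the female controls 131.7, 184, 119, 218 and 133 CPM, with no overlap. Male controls were lower by 1.49 on the log2 scale (SE 0.26, adjusted p = 0.00013). On Nr1i3_32070 the male controls had 93.6, 68.4, 52.8, 34.6 and 77.2 CPM and the female controls 152, 164, 103, 153 and 124 CPM, again apart, with a log2 difference of -1.09 (SE 0.24, adjusted p = 0.00569). The other 2 probes had log2 differences of -1.06 and -0.74 and did not pass (adjusted p = 0.143 and 0.148).

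Between the control groups 3 of 68 receptor probes (4.41%) were called, all lower in males, against 2.60% called and 1.36% called lower over all probes. The third was Esr1_71418. Both Nr1i3 calls held in each of 19 alternative fits and mouse sets. Of 5 CAR target genes tested, 2 were lower in male controls: Cyp2b9 by 5.82 on the log2 scale and Cyp2b10 by 2.07 on Cyp2b10_30803 (adjusted p = 9.57e-13 and 0.0383), both cytochromes P450 of drug metabolism. Of the other lists, the bile acid enzyme Cyp8b1 was higher in male controls by 2.03 and Cyp3a11 by 1.51, while Papss2 was lower by 0.81 and Cyp4a10 by 1.78 (adjusted p = 0.00734, 0.0194, 0.0255 and 0.0449). Since sex stood together with lactation and age here, the source of these differences cannot be told apart.

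With HFPO-DA, Nr1i3 was lower in males on 1 of 4 probes at 5 mg/kg and on none at the lower doses. On Nr1i3_32070 the males at 5 mg/kg had 21.7, 40.6, 37.1 and 47.6 CPM, and the probe fell by 0.82 (SE 0.26, adjusted p = 0.0425), although control 4 at 34.6 CPM lay among them. The call was lost without control 1 (adjusted p = 0.117) or without mouse 1 at 5 mg/kg (0.138). It was also lost without the shallow libraries (0.267), with males fitted apart (0.105) and when the counts of the 4 probes were summed (-0.29, adjusted p = 0.445). The other probes in males had log2 fold changes of -0.35, -0.88 and close to 0, and on Nr1i3_80654 the males at 5 mg/kg had 95.2 to 134 CPM within the 82.1 to 146.5 CPM of the controls. The probes of this gene thus disagreed.

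At 0.5 mg/kg, Nr1i3_30612 had 83.6, 75.4, 92.2, 114 and 103 CPM in males, with 1 of the 5 within the controls, and a log2 fold change of 0.74 that did not pass (adjusted p = 0.263). In females at 5 mg/kg, Nr1i3_32070 had 72.7, 76.7, 136 and 128 CPM and overlapped the controls, with a log2 fold change of -0.43 (adjusted p = 0.602). Of the CAR targets at 5 mg/kg, Cyp2b9 rose by 3.91 in males (adjusted p = 1.91e-08) and had a log2 fold change of -0.97 in females (adjusted p = 0.233). Cyp2b10, the usual mark of CAR activity in mouse liver, had -0.73 in males and -1.19 in females on Cyp2b10_30803 and did not pass (adjusted p = 0.519 and 0.401). In females Gadd45b, a stress gene that CAR induces, rose by 2.46 on 1 of 2 probes (adjusted p = 0.0133).

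PXR (Nr1i2) did not pass on either probe in any comparison. On Nr1i2_65580 the females at 5 mg/kg had 65.7, 55.5, 72.8 and 57.8 CPM and their controls 63.9, 28.2, 45.6, 44.2 and 34.6 CPM, overlapping in control 1 alone. The log2 fold change was 0.54 (unadjusted p = 0.0461, adjusted p = 0.389), and in males it was 0.37. Of 5 PXR targets, only the carboxylesterase Ces2a passed, lower in both sexes, by 1.42 in males and 0.68 in females on Ces2a_31826 (adjusted p = 6.44e-06 and 0.0567). Cyp3a11, the main PXR-induced P450 in mouse liver, differed by -0.12 (log2) in males, with 0.54 in females, on Cyp3a11_30591 (adjusted p = 0.912 and 0.761).

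**Figure D3:**
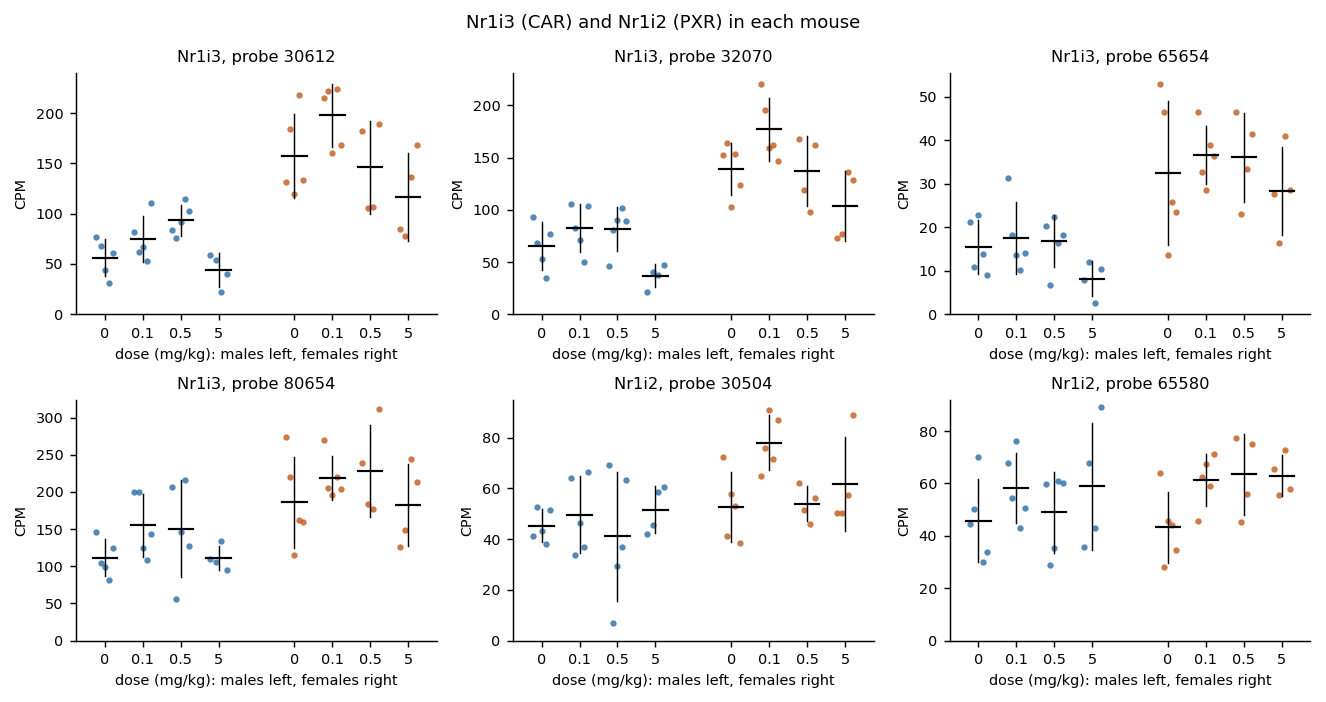
CPM of the 4 probes of Nr1i3 and the 2 probes of Nr1i2 in each mouse (points), by dose in mg/kg, with males left and females right; bars mark the group mean and vertical lines 1 SD. On Nr1i3_30612 and Nr1i3_32070 the male controls lie below the female controls, and the Nr1i2 probes show no such gap.

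Estrogen receptor α (Esr1, chr10:4611593-5005614, + strand), which in liver acts on lipid and secretory genes, was measured on 3 probes. On Esr1_71418 the male controls had 5.28, 12.6, 4.15, 13.2 and 8.24 CPM and the males at 5 mg/kg 4.01, 2.76, 0.75 and 1.39 CPM, all lower. It fell by 1.91 on the log2 scale (SE 0.55, adjusted p = 0.0205), and the call was lost with males fitted apart (adjusted p = 0.177). The female controls had 19.4, 14.7, 28.7, 26.6 and 36.7 CPM and the females at 5 mg/kg 9.45, 12.3, 17 and 11.4 CPM, overlapping in 1 mouse. The log2 fold change of -1.01 in females did not pass with all mice in the fit (SE 0.48, adjusted p = 0.377) and passed with females fitted apart (adjusted p = 0.0105).

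On Esr1_30061 all 4 males at 5 mg/kg had 0 counts, and the controls had 0, 1.69, 3.61, 0 and 2.98 CPM. A floor of 3 counts over the group gave a bound of 12-fold lower, which covers counting error only (adjusted p = 0.0469). This call was lost in 2 of 18 alternatives, among them males fitted apart (adjusted p = 0.201). On Esr1_32092 the male controls had 0.39 to 2.01 CPM, and 1 male at 5 mg/kg had 5.90 CPM while the other 3 had 0. On Esr1_71418 the male controls were lower than the female controls by 1.54 on the log2 scale (SE 0.46, adjusted p = 0.0802). That call was lost without male control 1, 3 or 5 or female control 3, 4 or 5 (adjusted p = 0.131 to 0.251).

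**Figure D4:**
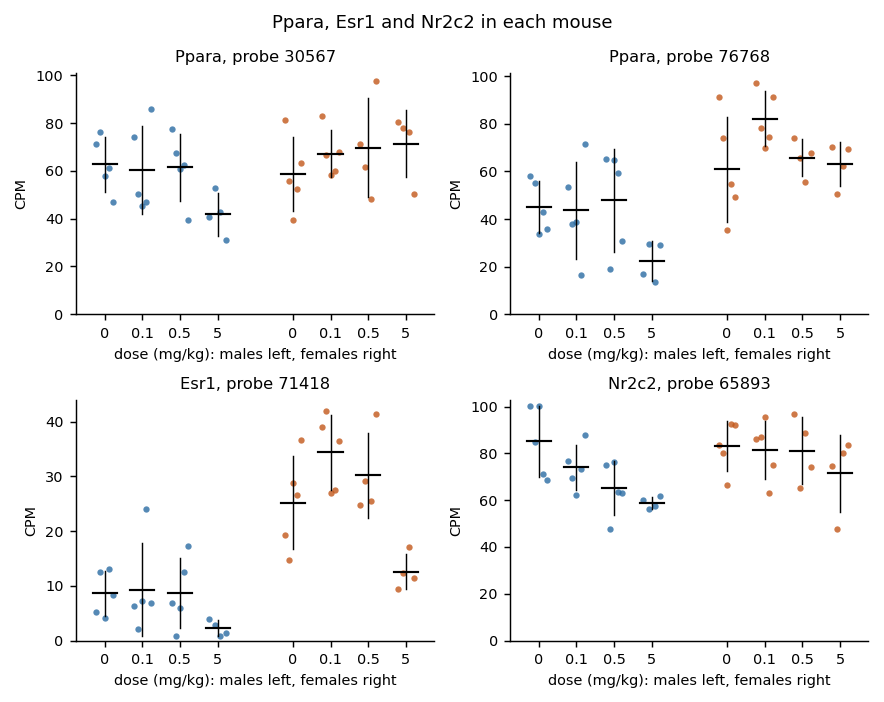
CPM of Ppara_30567, Ppara_76768, Esr1_71418 and Nr2c2_65893 in each mouse (points), by dose in mg/kg, with males left and females right; bars mark the group mean and vertical lines 1 SD. In males the 4 mice at 5 mg/kg lie below all controls on Ppara_76768, Esr1_71418 and Nr2c2_65893, and overlap them on Ppara_30567.

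HNF4α (Hnf4a), the receptor that keeps hepatocyte genes on, passed in no comparison. On Hnf4a_69707 the males at 5 mg/kg had 41.5, 110.0, 55.9 and 77.7 CPM and the controls 103, 103, 135, 97.9 and 85.5 CPM, with a log2 fold change of -0.55 (adjusted p = 0.228). The females at 5 mg/kg had 45.7 to 96.2 CPM, around the 56.5 to 84.2 CPM of their controls. Of 6 HNF4α targets tested, 3 fell and 1 rose in males, and 3 fell in females. Otc, a urea cycle enzyme, fell by 1.75 in males and 0.76 in females (adjusted p = 2.69e-07 and 0.0324), and F9, a coagulation factor, fell by 0.63 and 0.54 (adjusted p = 0.00887 and 0.0528). Apob, the lipoprotein scaffold, fell by 0.70 in males, Ttr, a transport protein that is also on the hepatocyte list, fell by 0.69 in females, and Mttp, which loads lipid on Apob, rose by 0.55 in males.

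Among the orphan receptors, TR4 (Nr2c2, chr6:92091390-92174294, + strand) fell in males on 1 of its 2 probes. On Nr2c2_65893 the controls had 100.4, 85.1, 100.3, 71.2 and 68.8 CPM and the males at 5 mg/kg 60.1, 56.4, 57.4 and 61.8 CPM, with no overlap. It fell by 0.53 (SE 0.18, adjusted p = 0.0643). The call was lost in 9 of 19 alternatives, with adjusted p up to 0.17, among them those without control 1 (adjusted p = 0.116), control 3 (0.107) or mouse 3 at 5 mg/kg (0.119), with DESeq2's size factors in edgeR (0.133) with males fitted apart (0.142) and without the shallow libraries (0.137). Its relative TR2 (Nr2c1) had 19.3, 9.94, 18.9 and 9.44 CPM in females at 5 mg/kg and 4.30 to 9.83 CPM in their controls, and a log2 fold change of 0.94 that passed only with females fitted apart (adjusted p = 0.0311, against 0.748 with all mice). In males Nr2c1 had a log2 fold change of -0.05, and 0.65 without the shallow libraries.

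The germ cell nuclear factor (Nr6a1, chr2:38723370-38927688, - strand) was scarce. On Nr6a1_82201 all 4 males at 5 mg/kg had 0 counts and 2 of the 5 controls had counts, at 2.14 and 3.41 CPM. The bound was 7.86-fold lower, for counting error only (adjusted p = 0.0912). The call was lost in 10 of 16 alternatives, among them those without male control 3 (adjusted p = 0.121) or 5 (0.166), and without any 1 of the 4 males at 5 mg/kg (0.147 to 0.158). With the probes of the gene summed, the log2 fold change was -0.76 (adjusted p = 0.54). The other tested probes of Nr6a1 were not called and disagreed. On Nr6a1_82202 the males at 5 mg/kg had 0 to 1.32 CPM, below the 1.74 to 6.01 CPM of their controls. On Nr6a1_78231 the log2 fold change in males was 2.21, and -2.83 without the shallow libraries. COUP-TFII (Nr2f2) and EAR2 (Nr2f6) passed on none of 6 probes at 5 mg/kg, with log2 fold changes from -0.23 to 0.73 in males and from -0.43 to 0.50 in females. COUP-TFI (Nr2f1) had 20 counts in all over the 5 male controls, and was not called either.

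The estrogen-related receptors, regulators of mitochondrial genes, were near the limit of detection. Esrra_79787 (Esrra, chr19:6910977-6921813, - strand) had 0 counts in all 4 males at 5 mg/kg and 0.36, 0.65, 0, 2.92 and 0 CPM in the controls. The bound was 5.90-fold lower, for counting error only (adjusted p = 0.0919). The call was lost in 11 of 17 alternatives, with adjusted p up to 0.225, among them those without control 4, the mouse with 2.92 CPM (adjusted p = 0.216), without control 2 (0.105), and without any 1 of the males at 5 mg/kg (0.144 to 0.162). Esrrg_67806 also had 0 counts in these males and 22 counts in 3 controls, and did not pass (adjusted p = 0.157).

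The glucocorticoid receptor (Nr3c1), which binds cortisol-like hormones, did not pass on any of its 3 probes. On Nr3c1_30651, among the most uniform receptor probes, the males at 5 mg/kg had 45.5, 50.9, 35.6 and 28 CPM against 32 to 54 CPM in the controls, and the females 43.2 to 63.9 CPM against 43.4 to 61.6 CPM. Of 7 glucocorticoid target genes tested, 4 fell in males and 0 passed in females. Tat, which degrades tyrosine, fell by 2.86 (it is also on the hepatocyte list), Tsc22d3 (GILZ) by 1.61 on Tsc22d3_32037, the chaperone Fkbp5 by 1.70 and the gluconeogenic enzyme Pck1 by 1.29 (adjusted p = 0.000204, 0.000966, 0.0111 and 0.0147). The mineralocorticoid receptor (Nr3c2) differed by -0.67 (log2) in males, with -0.88 in females, and did not pass, and without the shallow libraries the male value turned to 0.17.

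The clock receptors REV-ERBα (Nr1d1) and REV-ERBβ (Nr1d2), repressors that swing over the day, and RORα (Rora), their activating counterpart, varied widely among mice of one group. The male controls had 40.0, 34.4, 22.7, 73.6 and 33.4 CPM of Nr1d1 and the males at 5 mg/kg 17.7, 37.2, 12.8 and 20.2 CPM. The female controls had 43.4, 55.3, 6.74, 32 and 39.4 CPM and the females at 5 mg/kg 23.2, 23.7, 19.7 and 35.2 CPM. Each pair of groups overlapped, and the log2 fold changes were -0.88 (SE 0.60, adjusted p = 0.409) and -0.47 (SE 0.59, adjusted p = 0.981). Those of Nr1d2 were -0.60 and -0.21, and those of Rora -0.13 and -0.76, and none passed.

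Female control 3 stood low on both REV-ERBs, at 6.74 CPM of Nr1d1 and 7.49 CPM of Nr1d2, where the other female controls had 27 to 36.9 CPM of Nr1d2. The same mouse had 250 CPM summed over 15 clock partner genes, against 971 to 1080 CPM in the other 4. In males the sum ran from 253 to 1110 CPM in the controls and from 227 to 364 CPM at 5 mg/kg. The hour at which each liver was taken was not analysed here, and its part in these values was not tested. Of 14 clock partners tested, 3 fell in males and 1 in females: in males Bhlhe40 by 1.38 and Ciart by 3.15 on the log2 scale (adjusted p = 0.00331 and 0.0483), with Per1, at a mean of 2.46 CPM, also lower (adjusted p = 0.00406), and in females Nfil3 by 1.64 (adjusted p = 0.0147).

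**Figure D5:**
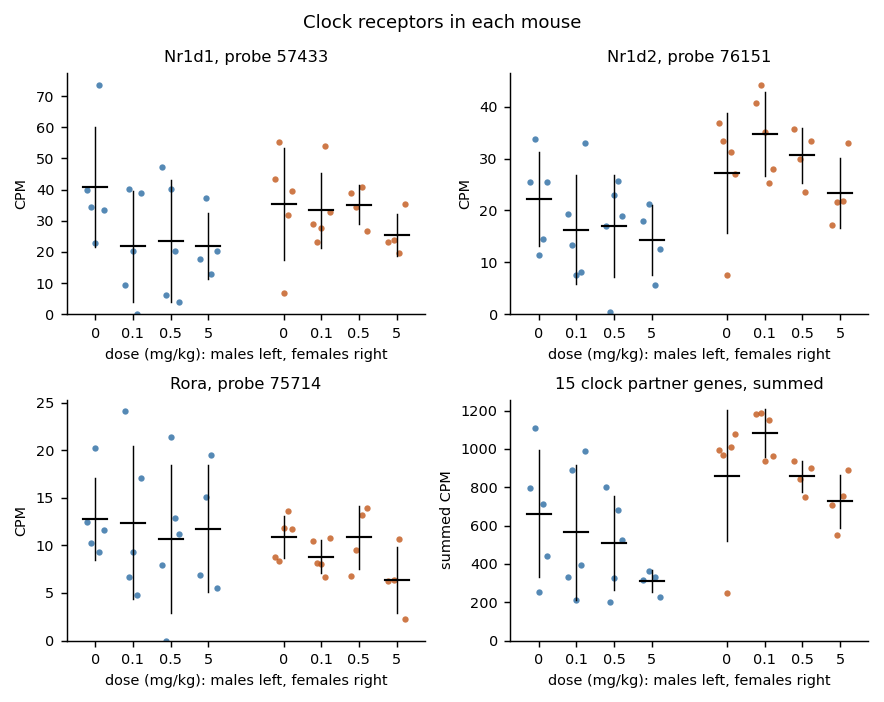
CPM of Nr1d1, Nr1d2 and Rora, and the summed CPM of 15 clock partner genes, in each mouse (points), by dose in mg/kg, with males left and females right; bars mark the group mean and vertical lines 1 SD. One female control sits at 6.74, 7.49 and 250 CPM for Nr1d1, Nr1d2 and the sum, and the 4 males at 5 mg/kg lie at 227 to 364 CPM for the sum.

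The thyroid hormone receptors passed in no comparison at 5 mg/kg with all mice in the fit. TRβ (Thrb), the main hepatic isoform, had 3.54, 27.9, 4.88 and 17.8 CPM in males at 5 mg/kg and 40.0, 24.1, 35.3, 11.4 and 28.8 CPM in their controls on Thrb_32099. The lowest values were those of mice 1 and 3, the shallow libraries, and the log2 fold change was -1.0 (SE 0.39, adjusted p = 0.109). On Thrb_30066 the females at 5 mg/kg had 6.77, 6.20, 5.53 and 5.02 CPM, just below the 6.92 to 15.3 CPM of their controls, and the probe was lower only with females fitted apart (adjusted p = 0.0697, against 0.816 with all mice). Of 5 thyroid hormone targets tested, only malic enzyme (Me1) passed, higher by 2.29 and 1.89 in males and females on Me1_77697 (adjusted p = 1.90e-08 and 1.36e-06).

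The retinoic acid receptors and the vitamin D receptor (Vdr) had no call in any comparison. In males at 5 mg/kg Rara had 0, 4.08, 0 and 9.27 CPM and the controls 3.06 to 14.5 CPM. Vdr, which hepatocytes barely express, had a mean of 0.35 CPM on the probe that could be tested. Of 4 retinoic acid targets tested, 0 passed in either sex. The NR4A receptors, which respond within minutes to stimuli, could not be tested: Nr4a1 had 57 and 39 counts on its 2 probes over all 37 mice, Nr4a2 had 0 and Nr4a3 had 1 and 31. A count of 0 allows up to 3 counts. Hnf4g, an HNF4 form of the gut, had 95 counts over 14 mice. Of 9 other immediate early genes tested, 2 fell in males, Ier2 by 1.22 and Dusp1 by 1.31, and 1 in females, Ier2 by 1.08 (adjusted p = 0.00399, 0.0979 and 0.0183).

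Receptors act through coregulators, and of 17 coregulator genes tested, 5 fell in males at 5 mg/kg and 0 passed in females. In males Lpin1, a lipin that also boosts PPARα activity, fell by 2.79 on Lpin1_79112, and its other 2 probes by 2.90 and 2.86 (adjusted p = 0.00117, 0.00124 and 0.00202). The coactivator Ncoa1 fell by 1.33 (adjusted p = 0.0486). Of the others called, Ncoa3_32112 and Nrip1_31465 had means of 3.92 and 0.907 CPM, where a fitted fold means little, and the second Ncoa3 probe had a log2 fold change of -0.14 that did not pass.

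At the lower doses no receptor probe was called. At 0.1 mg/kg 0% of all probes were called in either sex, and at an unadjusted p under 0.05 there were 0 receptor probes of 68 in each sex, against 7.14% of all probes for males and 2.38% for females. At 0.5 mg/kg 0.625% of all probes were called in males and 0.113% in females, and 8 receptor probes in males (11.8%, against 10.3% of all) and 2 in females (2.94%, against 4.33%) had an unadjusted p under 0.05. DESeq2 called 0 receptors at 0.1 mg/kg, against 0.113% of all probes for males and 0.0106% for females. It also called 0 in females at 0.5 mg/kg, against 1.59%. At 0.5 mg/kg in males it called 3, against 1.78% of all probes: Nr1i3_30612 was higher and Nr2f2_32006 and Thra_80206 were lower.

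Of these, Nr2f2_32006 (COUP-TFII, which marks vessel and stellate cells as well) came nearest in edgeR. The males at 0.5 mg/kg had 8.70, 13.2, 11.1, 9.95 and 18.6 CPM, all below the 19.3 to 24.7 CPM of their controls, with a log2 fold change of -0.88 (adjusted p = 0.135). At 5 mg/kg the same probe had 9.67, 22.6, 23.6 and 25.8 CPM, with 1 mouse below the controls, 2 among them and 1 above, and a log2 fold change of -0.15 (adjusted p = 0.822). Without the shallow libraries it passed at 0.5 mg/kg (adjusted p = 0.0681), where 0.755% of all probes did. Cell type markers were not tested at 0.5 mg/kg. The summed level of 10 stellate cell markers in males was 153 to 829 CPM at 0.5 mg/kg and 339 to 496 CPM at 5 mg/kg. In the male controls it was 189 to 503 CPM. Stellate cell markers had 0 calls of 10 tested at 5 mg/kg in either sex. Of 10 sinusoidal endothelial markers 2 fell in males (Oit3 and Kdr) and 0 in females at that dose. Of 10 Kupffer cell markers and 4 cholangiocyte markers tested 0 were called, and of 6 lymphocyte markers only Cd3d, in males, with both of its probes lower.

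Probes of one receptor often differed. Of 22 receptors with at least 2 tested probes, 15 had one direction on all probes in males at 5 mg/kg and 7 had both. In females these numbers were 14 and 8. In males all probes were called for Nr1h4 only, and some but not all probes for 7 receptors, while in females Rxra was called on both probes. Probes differ in how well they bind and ligate, so levels were not compared between receptors.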

How the data were processed

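Liver sections of 37 mice were assayed by TempO-Seq. The authors deposited raw counts per probe, not normalized, after removing 3 mice; the submitters' processing notes name bcl2fastq 2.17.1.14 and Bowtie, and the genome build is not given in the sources used here. Members were taken by gene symbol. The members, the gene lists and the tests were chosen with earlier results of these data known.

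Counts were fitted with edgeR 4.0.16 (R 4.3.3; quasi-likelihood test, TMM, filterByExpr over the 8 groups of sex and dose, 1 model of all mice). Each dose was set against the controls of the same sex. P-values were adjusted by Benjamini-Hochberg over 18570 probes. A probe was called at an adjusted p under 0.10, and a gene where at least 1 probe was called. SE and 95% intervals are on the log2 scale. Where a group had 0 counts, a floor of 3 counts over the group gave the bound, which covers counting error only. The fit was tested on simulated data with the same spread in both sexes, so that test could not check the shared estimate of the spread.

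All members are described; of each list, the counts and up to 5 called genes with the smallest adjusted p in each sex were named, fewer where low counts made a fold uninformative. Some items are not reported here. A list's count is of genes with any probe called, and its median uses the most counted probe of each. Alternatives were DESeq2 1.42.0, other size factors, filters and thresholds, a robust fit, summed probes, thinned counts, each sex apart, no libraries under 5000000 counts, and each mouse left out. All 68 pairs of mice within a group differed beyond counting noise (chi-square per probe 21.7 to 125). The labels name separate animals. Gene positions are from GENCODE vM21 (GRCm38), matched for 38 of 38 genes. Promoter windows are from RefSeq.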

Additional observations from a re-analysis of the deposited data

Results flagged for a closer look

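In 7 of 93 groups of 4 or 5 mice examined on the called receptor probes, 1 mouse stood apart from the rest of its group by Dixon's test. The test's chance rate of about 1 in 20 assumes normal values. Some of these groups held low counts with zeros, so the 7 cannot be weighed against that rate. A female control (mouse 4) had 46.9 CPM of Nr1h4_32156 against 20.5 to 26 CPM in the others, and a male at 0.1 mg/kg (mouse 4, a shallow library) had 24.1 CPM of Esr1_71418 against 2.08 to 7.23 CPM. The same male had 3.81 CPM of Nr6a1_82201 against 0 to 1.06 CPM.

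The others were on probes with few counts. On Esr1_30061 mouse 3 at 0.1 mg/kg had 1.52 CPM where the other males had 0, and mouse 3 at 0.5 mg/kg had 2.71 CPM against 0 to 0.768 CPM. On Esrra_79787 male control 4 had 2.92 CPM against 0 to 0.649 CPM, and a male at 0.5 mg/kg (mouse 2, a shallow library) had 10.2 CPM against 0.967 to 2.92 CPM.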

How the results depend on the processing

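No called result reversed its direction. Of 68 receptor probes at 5 mg/kg, 13 in males and 1 in females changed sign without the libraries under 5000000 counts. With DESeq2 4 in males did, among them Nr2c1_57941. All probes that changed sign were uncalled. The number of receptor genes called at 5 mg/kg in males was 8, and it was 2 with each sex fitted apart, 5 at a threshold of 0.05 and 4 without the libraries under 5000000 counts. A gene counted where any of its probes was called, so the counts over all probes given here are not a like share. Over all probes, 2359 of 18570 were called, and 1120 of 16103, 1530 of 18570 and 1842 of 20794 under these settings. The number of receptor genes ran from 5 to 11 when 1 mouse was left out, with 5 without mouse 3 at 5 mg/kg (1876 of 19452 probes in all). In females it was 1, and it was 5 with each sex fitted apart, 2 without the shallow libraries, and 0 to 1 with 1 mouse left out, with 0 without mouse 1 at 5 mg/kg. Over all probes these were 839 of 18570, and 2093 of 17038, 1207 of 20794 and 636 of 19435. At 0.5 mg/kg in males it was 0, and it was 1 with probes summed, 1 without the shallow libraries, 3 with DESeq2, and 0 to 1 with 1 mouse left out (1 without mouse 3 or 5 at that dose). Over all probes or genes these were 116 of 18570, and 107 of 13154, 157 of 20794, 319 of 17946, and 107 of 18523 or 108 of 18471. Between the controls it was 2, and it was 4 with thinned counts, 1 at a threshold of 0.05, and 1 to 2 with 1 mouse left out (1 without male control 3 or 5, or female control 3, 4 or 5), against 483 of 18570 probes in all, 519 of 13057 thinned and 340 of 18570 at 0.05. The cause of these shifts was not tested. The shallow-library, leave-one-out and separate fits hold fewer mice. The separate fits also estimate the spread in each sex by itself, where the median SD was 0.486 in males and 0.295 in females. With them the number of called probes was lower in males and higher in females. Under all alternatives run, 0 genes were called at 0.1 mg/kg in either sex, at 0.5 mg/kg in females and for the difference between the sexes. Among single probes, Nr1h4_32156 and Rxra_65726 in males, and Nr1i3_30612 and Nr1i3_32070 between controls, kept their call in each of 19 alternatives. The median log2 fold change of all probes in males at 5 mg/kg was -0.12, and -0.03 with DESeq2's size factors. No paired analysis was made, since each group held different animals and the labels give no pairing between them. A receptor with few counts (Nr4a, Nr6a1, Esrra, Rarb, Vdr) may differ by more than could be detected at this depth.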
